A study of Mus musculus with 6 samples.

Results

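This account covers the Toll-like receptors (TLRs) that sit in endosomes and the proteins that fold them and carry them there. There were 10 genes chosen by name, the receptor genes Tlr3, Tlr7, Tlr8, Tlr9, Tlr11, Tlr12 and Tlr13 and the partner genes Unc93b1, Cnpy3 and Hsp90b1. Of these, 9 of 10 had a probe set with that gene symbol alone, among 19938 genes measured, and each of the 9 had 1 probe set. Tlr11 had none in the annotation used here and was not analysed.

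The study hybridised 6 Affymetrix arrays with RNA of conventional dendritic cells (cDC) that had been sorted from the spleens of wild-type (WT) mice. A pair of arrays held CD24+ cells, called cDC1, and the cDC2 were split by CD24 into CD24+CD172a+ and CD24-CD172a+ cells, also with 2 arrays each. The labels name no strain, age or treatment, and separate animals are not stated for replicate arrays. The p-values therefore measure the spread between these arrays, which may be technical.

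Endosomal TLRs recognise nucleic acids or microbial proteins inside the compartments to which endocytosed cargo is delivered. They are made in the endoplasmic reticulum (ER), where the chaperone gp96, encoded by Hsp90b1, folds most of them with its co-chaperone, encoded by Cnpy3. TLR3 is known as an exception that needs neither. UNC93B1 then carries them to endosomes, where proteases trim their ectodomains and where most signal through the adaptor MyD88 and TLR3 through TRIF. In the spleen, TLR3 and the profilin receptors are known as receptors of cDC1 and TLR7 as a receptor of cDC2.

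Levels below are log2 intensities. A difference is the first population minus the second on the log2 scale, with its standard error (SE) from limma's fit across all genes, and it was called when its Benjamini-Hochberg adjusted p was under 0.05. Median intensities ran from 29.5 to 30.6 over the 6 arrays, and replicate arrays correlated at 0.992 to 0.993 over genes. No detection calls were used here, so a level under an array's 25th percentile over genes (3.89 to 3.97) was treated as dim, and a difference that rests on one has no exact size. The sorted identities showed in the markers. The 5 cDC1 markers summed to intensities of 5707 to 6240 in CD24+ cDC1 and 250 to 374 in the cDC2 arrays, and the 5 cDC2 markers to 192 to 196 and 2379 to 2909. Of the cDC2 markers, Sirpa encodes CD172a, so its part of these sums follows from the sort. All 5 were called higher in both cDC2 populations than in cDC1. The 4 general dendritic cell markers, such as Flt3 and Zbtb46, were above the 25th percentile on all arrays. Of the markers of other cell types, 1 of 7 for B cells (Ebf1), 2 of 8 for neutrophils (Ly6g and Cxcr2) and 1 of 5 for T and NK cells (Cd3g) were dim on all 6 arrays. Others were not, among them the B cell marker Ms4a1 (5.26 to 7.12) and the T cell marker Cd5 (7.38 to 7.83).

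The receptors divided mainly between cDC1 and the cDC2 populations. Tlr3 and Tlr12 were higher in cDC1, and Tlr7, Tlr9 and Tlr13 were higher in both cDC2 populations. Of the partners, Hsp90b1 was higher in cDC1, and Unc93b1 and Cnpy3 passed the test in no comparison. Against CD24+ cDC1, 6 of 9 genes were called in CD24+CD172a+ cDC2, 3 higher and 3 lower, where 13.6% of all genes were called (7.11% higher and 6.52% lower). The same count in CD24-CD172a+ cDC2 was 7 of 9, 4 higher and 3 lower, where 15.7% of all genes were called (6.83% higher and 8.91% lower). These comparisons share the cDC1 arrays. Between the cDC2 populations, 1 of 9 was called, Tlr7, which was lower in CD24+CD172a+ cells, where 1.46% of all genes were (0.808% higher and 0.652% lower). The median differences of the 9 genes were 0.43, -0.17 and -0.01 in these 3 comparisons, beside -0.03, 0.00 and -0.01 over all genes.

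**Figure D1:**
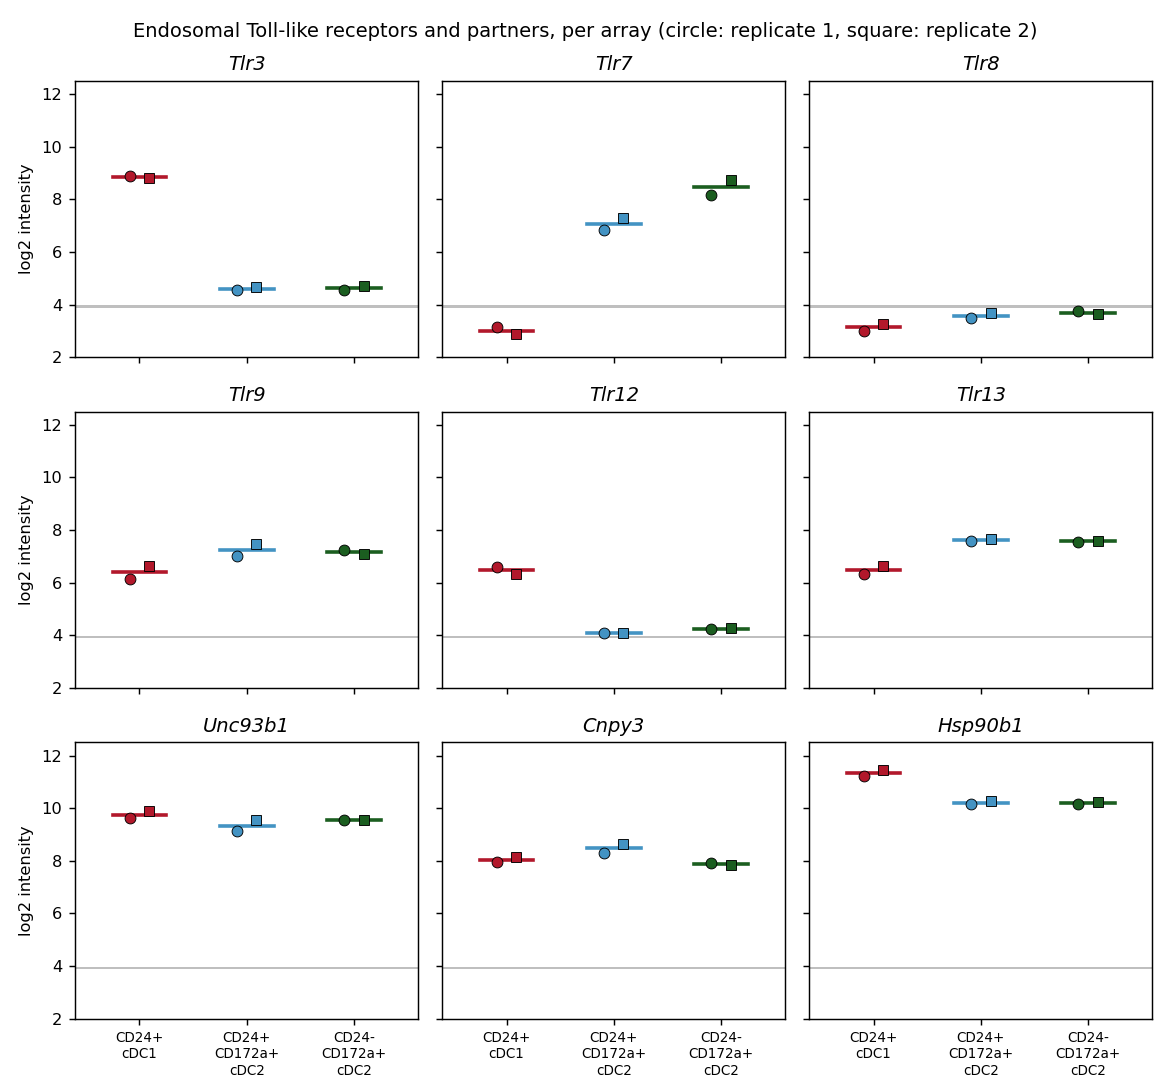
Log2 intensity (vertical axis) of the 9 genes on each of the 6 arrays, by sorted population (horizontal axis). Circles are replicate 1, squares replicate 2 and bars the mean of 2 arrays; the grey line spans the arrays' 25th percentiles (3.89 to 3.97). Tlr3, Tlr12 and Hsp90b1 stand highest in CD24+ cDC1, Tlr7 rises from 3.01 in CD24+ cDC1 to 8.45 in CD24-CD172a+ cDC2, and Tlr8 lies under the grey line on all arrays.

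The upstream sequences of the 3 genes that were higher in cDC1 are given here, because these genes differed in the same direction. RefSeq windows of build GRCm38.p6 were found for 8 of the 10 genes, and not for Tlr7 and Unc93b1. Each sequence holds the 250 bases before the annotated start of the gene, read on the gene's strand, and capitals mark matches to the motifs searched.
Tlr3, chr8:45410381-45410630, - strand: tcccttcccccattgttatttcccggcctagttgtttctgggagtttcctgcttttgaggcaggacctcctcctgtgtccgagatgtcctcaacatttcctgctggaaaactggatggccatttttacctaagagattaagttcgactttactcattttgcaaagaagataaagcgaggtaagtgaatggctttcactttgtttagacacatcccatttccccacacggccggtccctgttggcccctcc
Tlr12, chr4:128618620-128618869, - strand: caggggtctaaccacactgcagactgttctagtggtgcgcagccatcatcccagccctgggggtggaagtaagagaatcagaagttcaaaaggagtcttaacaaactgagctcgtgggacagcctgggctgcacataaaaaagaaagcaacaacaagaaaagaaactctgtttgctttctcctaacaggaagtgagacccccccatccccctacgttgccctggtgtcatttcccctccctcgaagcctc
Hsp90b1, chr10:86705445-86705694, - strand: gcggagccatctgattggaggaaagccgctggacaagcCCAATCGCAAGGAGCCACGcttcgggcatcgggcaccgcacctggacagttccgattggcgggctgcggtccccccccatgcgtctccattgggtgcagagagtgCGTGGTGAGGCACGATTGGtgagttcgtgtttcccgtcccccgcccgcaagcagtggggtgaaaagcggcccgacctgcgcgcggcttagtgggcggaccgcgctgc
The motifs were searched on both strands, and were picked after the expression values were seen. They were an ETS-IRF composite (GGAA, any 2 bases, then GAAA, in 2.3% of 32851 windows of this length), an interferon-stimulated response element (GAAA, any 2 bases, then GAAA, 2.98%), AP-1 (TGANTCA, 6.75%), a PU.1 core (GAGGAAGT, 2.44%) and the ER stress element (CCAAT, any 9 bases, then CCACG, 0.113%). The first and second differ in 1 letter and the PU.1 core holds the GGAA of the first. The windows of Tlr3 and Tlr12 held no match to these motifs, nor did those of Tlr8, Tlr13 and Cnpy3. That of Hsp90b1 held 2 ER stress elements, at bases -212 to -194 on the gene's strand and -107 to -89 on the other. That of Tlr9 held an AP-1 match, TGACTCA at -58 to -52, which reads as a match on both strands. That of Tlr11 held a PU.1 core at -133 to -126 and a response element, GAAACTGAAA, at -122 to -113.

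Tlr3, the receptor for double-stranded RNA, stood at 8.88 and 8.83 on the CD24+ cDC1 arrays, at 4.55 and 4.68 in CD24+CD172a+ cDC2 and at 4.55 and 4.70 in CD24-CD172a+ cDC2. Both cDC1 arrays lay far above all 4 cDC2 arrays, and the cDC2 populations overlapped. It was 18.9-fold lower in CD24+CD172a+ cDC2 than in cDC1 (-4.24 ± 0.13, SE, limma adjusted p = 1.48e-08) and 18.8-fold lower in CD24-CD172a+ cDC2 (-4.23 ± 0.13, limma adjusted p = 1.2e-08). With 16 added to each intensity before the log2, these differences were -3.57 and -3.56. Between the cDC2 populations it differed by -0.01, with a 95% confidence interval of -0.30 to 0.28 (limma adjusted p = 0.98).

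Tlr12, a receptor for the profilin of apicomplexan parasites, shared this order. It stood at 6.61 and 6.35 in CD24+ cDC1, 4.10 and 4.09 in CD24+CD172a+ cDC2, and 4.23 and 4.28 in CD24-CD172a+ cDC2. Both cDC1 arrays were above all cDC2 arrays, which lay just over the 25th percentile. The gene was 5.22-fold lower in CD24+CD172a+ cDC2 (-2.38 ± 0.13, limma adjusted p = 8.62e-07) and 4.67-fold lower in CD24-CD172a+ cDC2 (-2.22 ± 0.13, limma adjusted p = 1.32e-06). With 16 added they were -1.67 and -1.58. The cDC2 arrays did not overlap, but their difference of -0.16 (interval -0.46 to 0.14) did not pass the test (limma adjusted p = 0.653). Tlr11, its partner receptor for profilin, could not be set beside it.

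Tlr7, the receptor for single-stranded RNA, ran the other way and was the member that set the cDC2 populations apart. It stood at 3.15 and 2.88 in CD24+ cDC1, 6.82 and 7.31 in CD24+CD172a+ cDC2, and 8.16 and 8.74 in CD24-CD172a+ cDC2. The 3 populations did not overlap, and both cDC1 levels were dim. Tlr7 was 16.6-fold higher in CD24+CD172a+ cDC2 than in cDC1 (4.05 ± 0.21, limma adjusted p = 5.29e-07) and 43.4-fold higher in CD24-CD172a+ cDC2 (5.44 ± 0.21, limma adjusted p = 6.07e-08). The sizes rest on the dim cDC1 levels, and with 16 added to each intensity before the log2 the differences were 2.64 and 3.93. In CD24+CD172a+ cDC2 it was 2.62-fold lower than in CD24-CD172a+ cDC2 (-1.39 ± 0.21, limma adjusted p = 0.0141). That call ended without CD24+CD172a+ replicate 1 (-1.15, limma adjusted p = 0.152), CD24+CD172a+ replicate 2 (-1.63, 0.0532) or CD24-CD172a+ replicate 2 (-1.10, 0.076), while the difference kept its sign.

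Marker genes of other cell types moved beside this Tlr7 difference. Of 11 monocyte and macrophage markers measured, 6 were lower in CD24+CD172a+ than in CD24-CD172a+ cDC2 and none was higher. Over all genes, 0.652% were lower and 0.808% higher in this comparison. Among the 6 were Adgre1, the F4/80 antigen (-1.12, limma adjusted p = 0.0105), and the complement gene C1qa (-0.88, limma adjusted p = 0.0171). The summed intensities of the 11 markers were 1964 to 2292 and 3832 to 4084, and 3589 to 3759 in CD24+ cDC1. Lyz2 was the brightest of them, at means of 11.61 in cDC1, 10.20 in CD24+CD172a+ and 11.29 in CD24-CD172a+ cDC2. The sums therefore mainly follow Lyz2 and do not stand for the list. Adgre1 had another order, at means of 4.17, 7.77 and 8.89. The macrophage receptor gene Mertk was dim on all 6 arrays. Plasmacytoid dendritic cells also express Tlr7 and Tlr9, and of 8 of their markers measured 3 were higher in CD24+CD172a+ than in CD24-CD172a+ cDC2 and none was lower, with sums of 712 to 731 and 470 to 482 beside 633 to 652 in cDC1. Against cDC1, 3 of the 11 macrophage markers were higher and 3 lower in CD24+CD172a+ cDC2, and 5 were higher and 1 lower in CD24-CD172a+ cDC2. The shares over all genes were 7.11% higher and 6.52% lower in CD24+CD172a+ cDC2, and 6.83% and 8.91% in CD24-CD172a+ cDC2. The part of such cells in the Tlr7 levels was not tested. In sorted bulk RNA, fewer cells with a transcript and less of it per cell cannot be told apart.

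Tlr8 and Tlr7 are neighbours on the X chromosome, with no other protein-coding gene between them in the RefSeq table. Tlr8, whose mouse protein responds poorly to the RNA ligands of its human counterpart, stood at 2.99 and 3.28 in CD24+ cDC1, 3.50 and 3.67 in CD24+CD172a+ cDC2, and 3.75 and 3.63 in CD24-CD172a+ cDC2. All 6 values were dim. Its difference between CD24-CD172a+ cDC2 and cDC1 passed the test (0.55 ± 0.14, limma adjusted p = 0.025), but not with 16 added to each intensity before the log2 (0.22, limma adjusted p = 0.0907), nor without cDC1 replicate 1 (0.206), CD24-CD172a+ replicate 1 (0.12) or CD24-CD172a+ replicate 2 (limma adjusted p = 0.0553). Against cDC1, CD24+CD172a+ cDC2 differed by 0.45 (interval 0.13 to 0.77, limma adjusted p = 0.0704). With cyclic loess normalisation this difference passed narrowly (0.485, limma adjusted p = 0.0493), and no other setting called it.

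Tlr9, the receptor for unmethylated CpG DNA, was present in all 3 populations. It stood at 6.16 and 6.63 in CD24+ cDC1, 6.998 and 7.48 in CD24+CD172a+ cDC2, and 7.25 and 7.08 in CD24-CD172a+ cDC2. The cDC1 arrays were below all cDC2 arrays, with a gap smaller than the spread between the cDC1 replicates. Tlr9 was 1.8-fold higher in CD24+CD172a+ cDC2 (0.85 ± 0.20, limma adjusted p = 0.0148) and 1.71-fold higher in CD24-CD172a+ cDC2 (0.77 ± 0.20, limma adjusted p = 0.0218). The first call ended without cDC1 replicate 1 (0.61, limma adjusted p = 0.135) or CD24+CD172a+ replicate 2 (0.61, 0.144), and the second without cDC1 replicate 1 (0.54, 0.189) or CD24-CD172a+ replicate 1 (0.69, 0.115) or 2 (0.85, 0.0535). The cDC2 populations differed by 0.08, with an interval of -0.36 to 0.51. B cells and plasmacytoid dendritic cells also express Tlr9. Against cDC1, of 7 B cell markers measured, 3 were higher and 1 lower in CD24+CD172a+ cDC2, and 2 higher and 1 lower in CD24-CD172a+ cDC2, with summed intensities of 236 to 275 in cDC1, 240 to 247 and 223 to 234. Of the 8 plasmacytoid markers, 3 were higher and 2 lower, and 2 higher and 3 lower. Of all genes, 7.11% were higher and 6.52% lower in CD24+CD172a+ cDC2, and 6.83% and 8.91% in CD24-CD172a+ cDC2. The part of B cells and plasmacytoid dendritic cells in the Tlr9 levels was not tested.

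Tlr13, which recognises a conserved stretch of bacterial ribosomal RNA, followed the same direction with less spread. It stood at 6.32 and 6.65 in CD24+ cDC1, 7.60 and 7.67 in CD24+CD172a+ cDC2, and 7.56 and 7.57 in CD24-CD172a+ cDC2. All 4 cDC2 arrays were above the cDC1 arrays by more than the cDC1 replicates differed. The gene was 2.22-fold higher in CD24+CD172a+ cDC2 (1.15 ± 0.14, limma adjusted p = 0.000278) and 2.12-fold higher in CD24-CD172a+ cDC2 (1.08 ± 0.14, limma adjusted p = 0.00041), and the cDC2 populations differed by 0.07 (interval -0.25 to 0.38).

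**Figure D2:**
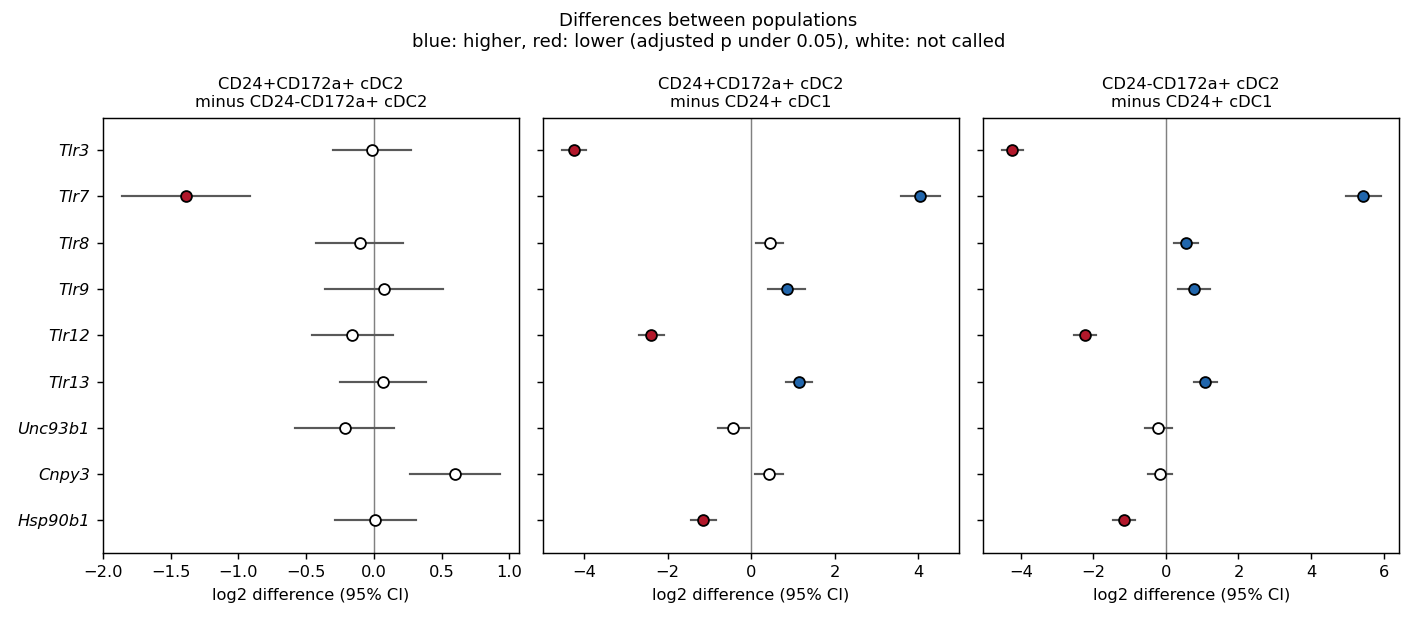
Log2 difference (horizontal axes, which differ in scale) with its 95% confidence interval for each of the 9 genes (rows) in the 3 pairwise comparisons (columns). Filled points were called by limma, 1 in the left panel, 6 in the middle and 7 on the right, and white points were not; Tlr7 is the filled point between the cDC2 populations.

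Of the 3 partners, Hsp90b1 was the one called in any comparison. It stood at 11.24 and 11.45 in CD24+ cDC1, 10.15 and 10.26 in CD24+CD172a+ cDC2, and 10.16 and 10.23 in CD24-CD172a+ cDC2. Both cDC1 arrays were above all cDC2 arrays, and the cDC2 populations overlapped. It was 2.2-fold lower in CD24+CD172a+ cDC2 (-1.14 ± 0.13, limma adjusted p = 0.000187) and 2.22-fold lower in CD24-CD172a+ cDC2 (-1.15 ± 0.13, limma adjusted p = 0.000176). The cDC2 populations differed by 0.01 (interval -0.29 to 0.31). These 2 calls, like those of Tlr3, Tlr12 and Tlr13 and those of Tlr7 against cDC1, were kept in each of the 6 fits with an array left out.

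Unc93b1, the carrier without which endosomal TLRs stay in the ER, stood at 9.62 and 9.90 in CD24+ cDC1, 9.13 and 9.54 in CD24+CD172a+ cDC2, and 9.54 and 9.56 in CD24-CD172a+ cDC2. The cDC2 populations overlapped, and both lay below the cDC1 arrays by less than the cDC1 replicates differed. Its differences from cDC1 were -0.42 in CD24+CD172a+ cDC2 (interval -0.79 to -0.06, limma adjusted p = 0.137) and -0.21 in CD24-CD172a+ cDC2 (interval -0.57 to 0.16, limma adjusted p = 0.508). Between the cDC2 populations it was -0.22 (interval -0.58 to 0.15, limma adjusted p = 0.613).

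Cnpy3, the co-chaperone of gp96, was at 7.95 and 8.14 in CD24+ cDC1, 8.30 and 8.64 in CD24+CD172a+ cDC2, and 7.91 and 7.84 in CD24-CD172a+ cDC2. CD24+CD172a+ cDC2 held its 2 highest arrays and did not overlap either other population. The difference from CD24-CD172a+ cDC2 was 0.60 ± 0.15 (interval 0.26 to 0.93) and that from cDC1 was 0.43 ± 0.15 (interval 0.10 to 0.76), and neither passed the test (limma adjusted p = 0.0929 and 0.0975). With an intensity trend and robust variance both passed narrowly (limma adjusted p = 0.0392 and 0.0493). CD24-CD172a+ cDC2 differed from cDC1 by -0.17 (interval -0.50 to 0.16), so Cnpy3 did not share the order of Hsp90b1.

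Hsp90b1 was not alone among ER chaperones. Of 20 ER chaperone and stress genes measured, 12 were lower in CD24+CD172a+ cDC2 than in cDC1. None was called higher by limma (3 at an unadjusted p under 0.05), and other settings called 0 to 2 higher. Of all genes, 6.52% were lower and 7.11% higher there. In CD24-CD172a+ cDC2, 14 of 20 were lower, where 8.91% of all genes were, and 2 of 20 were higher, where 6.83% of all genes were. The list's median differences were -0.74 and -0.96, beside -0.03 and 0.00 over all genes. The 12 called lower in the first comparison were lower in the second too, and the counts share the cDC1 arrays. None of the 20 was called by limma between the cDC2 populations, where 2 were higher and 2 lower at an unadjusted p under 0.05, and 5 of the other settings called 1 higher. Dnajc3, a co-chaperone that also inhibits a stress kinase, was among the largest decreases, at 10.42 and 10.44 in cDC1, 8.74 and 8.91 in CD24+CD172a+ cDC2, and 9.04 and 9.25 in CD24-CD172a+ cDC2 (-1.61 ± 0.14 and -1.29 ± 0.14, limma adjusted p = 1.59e-05 and 8.63e-05). The others with the largest decreases were the disulfide isomerase genes Pdia4 (-1.16 and -1.78) and Pdia3 (-1.28 and -1.34), the ER stress-induced genes Creld2 (-1.37 and -1.56) and Manf (-1.22 and -1.20), and Sdf2l1, a partner of the ER chaperone BiP (-1.15 and -1.28). Hspa5, which encodes BiP, did not pass the test, at -0.24 (interval -0.55 to 0.07) and -0.15 (interval -0.46 to 0.16). Nor did Xbp1, a transcription factor of the unfolded protein response (-0.37 and 0.04, limma adjusted p = 0.163 and 0.91), or Hsp90aa1, the cytosolic relative of Hsp90b1 (0.34 and 0.29, limma adjusted p = 0.139 and 0.19). The 2 genes higher in CD24-CD172a+ cDC2 were the stress transcription factors Ddit3 (0.54, limma adjusted p = 0.0206) and Atf4 (0.45, limma adjusted p = 0.0364), and the call of Atf4 ended without any 1 of the 6 arrays (limma adjusted p = 0.0527 to 0.156). That of Ddit3 ended without cDC1 replicate 1 (limma adjusted p = 0.162) or CD24-CD172a+ replicate 1 (0.0978) or 2 (0.0513).

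**Figure D3:**
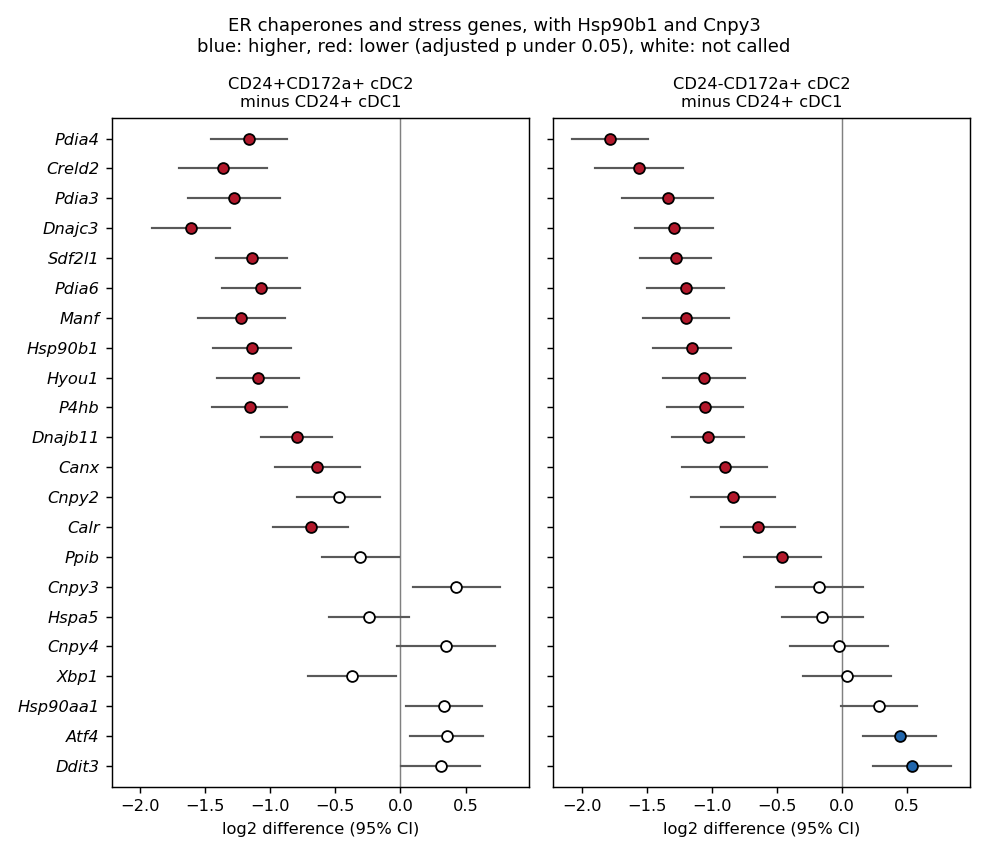
Log2 difference from CD24+ cDC1 (horizontal axis) with its 95% confidence interval for 20 ER chaperone and stress genes, Hsp90b1 and Cnpy3 (rows), in CD24+CD172a+ cDC2 (left) and CD24-CD172a+ cDC2 (right). Red points were called lower, blue higher and white not called; Hsp90b1 lies among the red points (-1.14 and -1.15), while Hspa5, Cnpy3 and Cnpy4 are white in both panels.

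The ER stress element found in the Hsp90b1 window was also searched in this list, since most of its genes measured were lower in the cDC2 populations, like Hsp90b1. RefSeq windows were found for 17 of the 21 listed genes. Of these 17, 6 held the full element, beside 35 of all 27025 genes with a window (0.13%). The 35 include these 6 genes and Hsp90b1. The list is of ER chaperone and stress genes, so a share above that of all genes comes with the choice of list. It says nothing on the difference between cDC1 and cDC2. The elements are written 5′ to 3′ on their own strand of GRCm38.p6, with the fixed letters in capitals.
Hsp90b1, chr10:86705638-86705656, - strand: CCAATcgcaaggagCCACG
Hsp90b1, chr10:86705533-86705551, + strand: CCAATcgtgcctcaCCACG
Hspa5, chr2:34772025-34772043, + strand: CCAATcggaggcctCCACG
Calr, chr8:84847075-84847093, + strand: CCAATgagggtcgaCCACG
Canx, chr11:50325800-50325818, - strand: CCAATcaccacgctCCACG
Pdia6, chr12:17266491-17266509, + strand: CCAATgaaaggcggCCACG
Dnajc3, chr14:118937827-118937845, + strand: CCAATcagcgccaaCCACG
Creld2, chr15:88819520-88819538, - strand: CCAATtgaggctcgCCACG
Of these 6 genes, Calr, Canx, Pdia6, Dnajc3 and Creld2 were called lower in both cDC2 populations, and Hspa5 in neither. In CD24+CD172a+ cDC2, the calls of Canx and Calr did not hold in all fits with an array left out. Their differences there were -0.76 to -0.52 and -0.785 to -0.597. Of all 20 ER list genes measured, 12 were lower in both cDC2 populations, among them genes with no element found, such as Pdia3, Pdia4 and Manf. For such genes, no element found can also mean that no window was found. A link between the element and the decrease was not tested. The match is a description of letters, and no binding was measured.

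The endosomal machinery split in both directions. Of 18 genes for sorting, proteolysis and nucleic acid handling, 5 were higher and 4 lower in CD24+CD172a+ cDC2 than in cDC1, where 7.11% and 6.52% of all genes were. In CD24-CD172a+ cDC2, 5 were higher and 5 lower, where 6.83% and 8.91% of all genes were. The list's medians were -0.17 and 0.04. In the first comparison, 2 were higher without cDC1 replicate 2 or CD24+CD172a+ replicate 2, and 2 were lower without cDC1 replicate 1 or 2 or CD24+CD172a+ replicate 1. In the second, 3 were higher without cDC1 replicate 2 and 2 were lower without cDC1 replicate 1. Among the proteases that can cut TLR ectodomains, Ctsb (-0.15 and -0.03) and Ctsk (0.22 and 0.01) were called in neither cDC2 population against cDC1. Ctss was called higher in both (0.51 and 0.49), but not in all fits with an array left out. Lgmn, asparagine endopeptidase, stood at 7.75 and 7.57 in cDC1, 9.63 and 9.93 in CD24+CD172a+ cDC2, and 9.84 and 9.77 in CD24-CD172a+ cDC2. It was higher in both (2.12 ± 0.15 and 2.15 ± 0.15, limma adjusted p = 3.25e-06 and 2.88e-06). Ctsl, cathepsin L, was also higher (0.63 and 1.28, limma adjusted p = 0.00974 and 8.41e-05), and the first of these calls ended without cDC1 replicate 2 (0.0951) or CD24+CD172a+ replicate 1 (0.0703) or 2 (limma adjusted p = 0.054). Pld3, an endolysosomal exonuclease, differed by 0.71 and 0.98 (limma adjusted p = 0.0349 and 0.00601), and neither call held without cDC1 replicate 2 (limma adjusted p = 0.235 and 0.0573). The first ended without CD24+CD172a+ replicate 2 as well (limma adjusted p = 0.272).

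Of the genes lower in the cDC2 populations, Rab7b, a GTPase of late endosomal traffic, stood at 9.42 and 9.71 in cDC1 and between 5.26 and 5.63 on the cDC2 arrays (-4.29 ± 0.15 and -4.05 ± 0.15, limma adjusted p = 2.61e-08 and 3.39e-08). Ap3d1, a subunit of the AP-3 adaptor that sorts TLRs to the endosomes from which interferon is induced, was lower by -1.15 ± 0.14 and -1.19 ± 0.14 (limma adjusted p = 0.00019 and 0.000141). Acp5, a lysosomal acid phosphatase, increased from cDC1 (6.45 and 6.51) through CD24+CD172a+ cDC2 (7.42 and 7.99) to CD24-CD172a+ cDC2 (8.87 and 9.03), and it and Ctsl were the 2 genes of this list lower in CD24+CD172a+ than in CD24-CD172a+ cDC2 (-1.24 ± 0.18 and -0.66 ± 0.14, limma adjusted p = 0.00976 and 0.0463). The call of Acp5 ended without CD24+CD172a+ replicate 1 (limma adjusted p = 0.0912) or CD24-CD172a+ replicate 2 (0.0647), and no fit without an array kept that of Ctsl.

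Of 20 signalling genes measured, 4 were higher and 1 lower in each cDC2 population than in cDC1. Of all genes, 7.11% and 6.83% were higher and 6.52% and 8.91% lower, so the share of the list that was lower did not exceed that of all genes. Limma called none between the cDC2 populations, where 1 was higher and 2 lower at an unadjusted p under 0.05. Without cDC1 replicate 1, 2 were higher in CD24-CD172a+ cDC2. The gene that was lower was Myd88, the adaptor of all these receptors but TLR3, at 7.25 and 7.28 in cDC1, 6.70 and 6.24 in CD24+CD172a+ cDC2, and 6.29 and 6.50 in CD24-CD172a+ cDC2 (-0.80 ± 0.17 and -0.87 ± 0.17, limma adjusted p = 0.00822 and 0.00463). The first of these calls ended without cDC1 replicate 2 (limma adjusted p = 0.0518) or CD24+CD172a+ replicate 2 (0.0822). Slc15a4, a lysosomal transporter needed for TLR7 and TLR9 responses, stood at 6.05 and 5.87 in cDC1, 6.72 and 6.95 in CD24+CD172a+ cDC2, and 6.99 and 7.25 in CD24-CD172a+ cDC2 (0.87 ± 0.15 and 1.16 ± 0.15, limma adjusted p = 0.00258 and 0.000364). The gene of its adaptor TASL, listed as 5430427O19Rik, was higher as well (0.72 ± 0.14 and 1.18 ± 0.14, limma adjusted p = 0.00668 and 0.00026). Its first call ended without CD24+CD172a+ replicate 1 (limma adjusted p = 0.0663). Ikbkb, a kinase that activates NF-kB, was higher in CD24+CD172a+ cDC2 (0.87 ± 0.15, limma adjusted p = 0.00249) and did not pass in CD24-CD172a+ cDC2 (0.45 ± 0.15, limma adjusted p = 0.0716). Rela, the p65 subunit of NF-kB, was higher in both (0.61 and 0.54, limma adjusted p = 0.0182 and 0.0301). The first of its calls ended without cDC1 replicate 2 (limma adjusted p = 0.128) or CD24+CD172a+ replicate 2 (0.154), and the second without any 1 of the 4 arrays compared (limma adjusted p = 0.0721 to 0.173). Irak2, a kinase downstream of MyD88, was higher in CD24-CD172a+ cDC2 (0.50, limma adjusted p = 0.0262), but not without cDC1 replicate 1 (0.133) or 2 (0.0967) or CD24-CD172a+ replicate 2 (limma adjusted p = 0.13). Ticam1, which encodes the TLR3 adaptor TRIF, did not follow Tlr3 and differed from cDC1 by -0.15 (interval -0.43 to 0.14) and 0.00 (interval -0.29 to 0.29). Irf7, a transcription factor of the interferon response to these receptors, differed by -0.12 and 0.29 (limma adjusted p = 0.778 and 0.363).

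**Figure D4:**
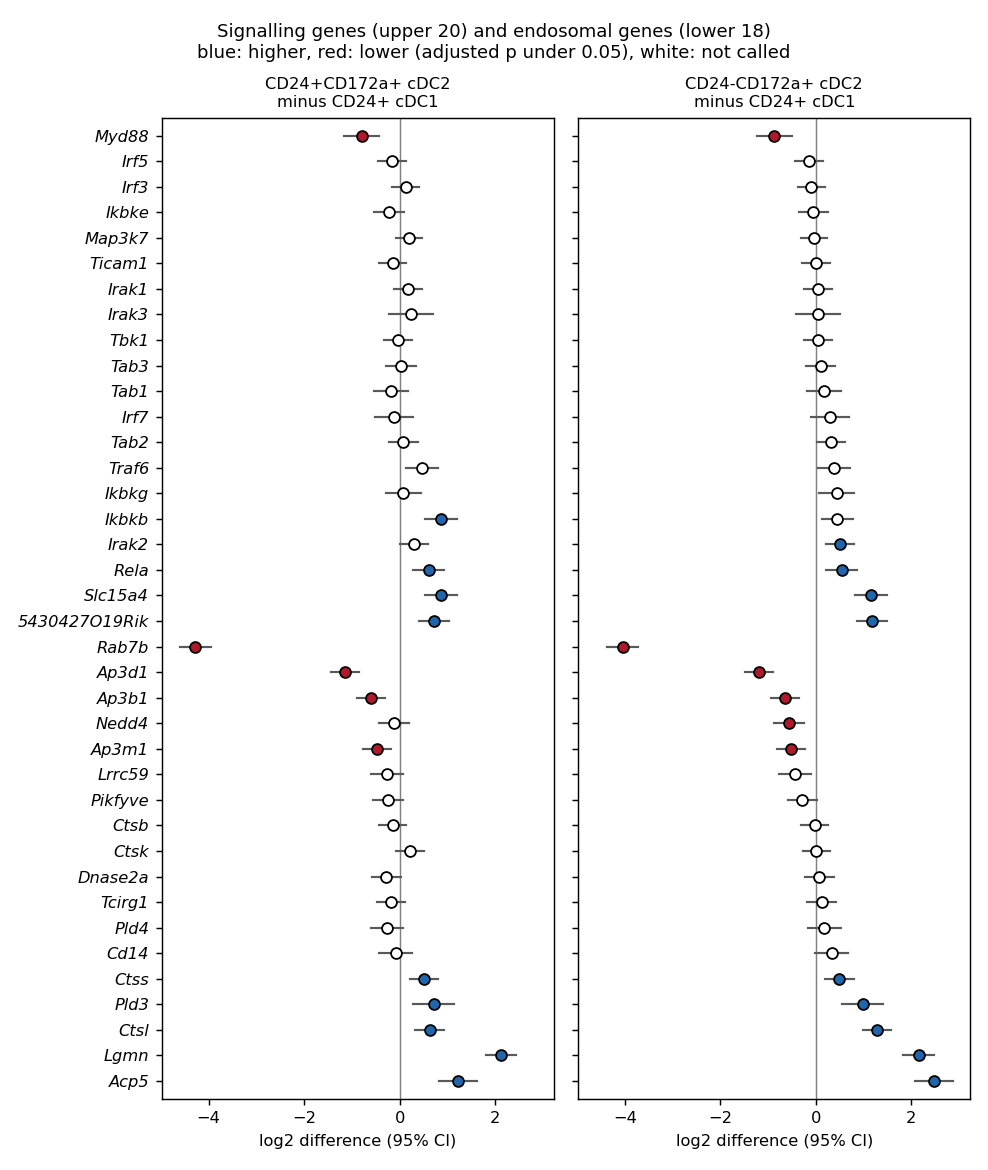
Log2 difference from CD24+ cDC1 (horizontal axis) with its 95% confidence interval for 20 signalling genes (upper rows, Myd88 to 5430427O19Rik) and 18 endosomal genes (lower rows, Rab7b to Acp5), in CD24+CD172a+ cDC2 (left) and CD24-CD172a+ cDC2 (right). Red points were called lower, blue higher and white not called; Rab7b lies farthest to the left (-4.29 and -4.05), Lgmn and Acp5 lie farthest to the right, and most signalling genes are white.

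The genes whose profiles over the 6 arrays were nearest to each receptor were found by the root mean square distance between log2 profiles centred on their own means. All share the same 6 arrays, and with 3 populations a close profile is a description. Nearest to Tlr3 were Plpp1 (distance 0.12), Clec9a (0.12), which encodes the dead-cell receptor of cDC1, and Akr1b8 (0.16). Plpp1 and Akr1b8 were dim in both cDC2 populations, at means of 2.77 to 3.58, so their distances rest on dim values. Nearest to Tlr7 were Adgre1 (0.34), Mmp12 (0.39), a macrophage metalloelastase, and the lectin gene Clec4a4 (0.43), at larger distances than for Tlr3. Clec4a4, like Tlr7 itself, was dim on both cDC1 arrays, and Mmp12 on cDC1 replicate 1. Nearest to Tlr12 were Esyt3 (0.09), the chemokine gene Cxcl2 (0.13) and Slc22a21 (0.14), and nearest to Tlr13 were Castor1 (0.06), Hdac5 (0.07) and Xrcc5 (0.07), the last dim on both cDC1 arrays. Nearest to Hsp90b1 were Ap3d1 (0.03, Pearson's r = 0.999 over the 6 arrays), Camk1d (0.08) and Stx17 (0.08).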

How the data were processed

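The authors processed the arrays in Affymetrix Expression Console with RMA, per the submitters' processing notes, and the deposited values are linear intensities, judged by their range. Labelled cDNA was made from picogram to nanogram amounts of RNA. RMA corrects background and quantile-normalises arrays, so a shift shared by most genes would not be seen. Versions and a genome build are not given in the sources used here. The log2 of each deposited intensity was taken. Of 28853 probe sets, 21789 had 1 gene symbol in the platform annotation, 1621 had several and 5443 had none. The probe set with the highest mean was kept for each gene, giving 19938 genes, dim ones included. All 6 arrays entered 1 fit in limma 3.58.1 (R 4.3.3, lmFit and eBayes), tested first on simulated data, with groups and replicate numbers taken from the sample titles. It had 3 residual and 7.31 prior degrees of freedom, and p-values were adjusted over all genes of a comparison. The number of arrays limits the precision.

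The 10 genes, the pathway and marker lists and the rule for named genes were chosen with earlier results of these data known. That rule named all members, 5 set pathway genes, up to 5 called genes of each pathway list in a comparison with the largest differences, and the 3 nearest profiles of each member whose population means spanned at least 1 log2 unit. Named outside it, after their values were seen, were Xbp1, Hsp90aa1, Cnpy4, Ddit3, Atf4, Calr, Canx, Pdia6, Ctsb, Ctsk, Ctss and the markers. Alternatives covered genes below the median level, probe sets, normalisation, an added constant, the variance model, the arrays in the fit, a replicate block and leaving out each array. Figures used matplotlib 3.10.9.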

Additional observations from a re-analysis of the deposited data

How the results depend on the processing

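The 14 called differences of the 9 genes had 221 values under the alternatives, which all kept their sign, and 12 of these lost the call, all of Tlr7 between the cDC2 populations, Tlr8 or Tlr9. The means of Tlr8 and Tlr12 over the 6 arrays lie below the median gene, so they have no value without genes below the median level. Tlr12 was not dim on any array. A lone array left in a population is assumed to vary like the others. Between the cDC2 populations, 291 genes were called, against 437 without genes below the median level, 464 with an intensity trend and robust variance, where 2 of the 9 genes were called, and 187 with only the 2 groups compared. With 1 array left out, 20 (without CD24+CD172a+ replicate 1) to 187 genes and 0 to 1 of the 9 were called there, and 1781 to 2769 (CD24+CD172a+) and 1922 to 2839 (CD24-CD172a+) against cDC1; the cause was not tested, beside the fewer arrays. Uncalled differences near 0 changed sign. Between the cDC2 populations, Tlr3 gave 0.032 under quantile normalisation again and 0.00 under median centring, Tlr9 gave -0.008 and Myd88 -0.025 under quantile normalisation, and cyclic loess gave -0.028 for Tlr9, -0.037 for Tlr13, -0.01 for Hsp90b1 and -0.028 for Myd88. Ticam1 in CD24-CD172a+ cDC2 against cDC1 gave 0.066 and 0.095 under the same settings. With 1 array left out, the ranges were -0.087 to 0.063 for Tlr3, -0.167 to 0.32 for Tlr9, -0.047 to 0.066 for Hsp90b1, -0.238 to 0.052 for Hspa5 and -0.158 to 0.303 for Myd88 between the cDC2 populations, -0.36 to 0.119 for Irf7 in CD24+CD172a+ cDC2 against cDC1 and -0.037 to 0.036 for Ticam1. Deviations of same-numbered arrays correlated at 0.02 to 0.08, and the labels tie the numbers to nothing shared. With the replicate block, 411, 2918 and 3323 genes were called, 1, 6 and 7 of the 9 among them, so no call of theirs changed. The alternatives of the pathway genes were run after the data were seen. Lower counts of the ER list stayed within 1.5 times under all of them.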
